A study of Mus musculus with 6 samples.

Results

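The control short interfering RNA (siRNA) pools of this mouse oocyte series were compared with its untreated young oocytes. The series holds 6 samples, and 3 enter the comparison. These are 2 pools of 10 oocytes each, labelled young and treated with control siRNA (siCtrl 1 and siCtrl 2), and 1 sample of 35 single oocytes labelled young with no treatment. All oocytes were labelled MII, metaphase of the second meiotic division, where an egg rests until sperm arrive. The titles call the siCtrl pools WT and the siPlat pools KD. The labels give no strain, further genotype, age in weeks or animal, and do not say how siRNA was delivered or how the oocytes reached MII, so each group is described only as far as this. The 2 pools treated with siRNA against Plat (siPlat 1 and siPlat 2) and the sample of 59 single oocytes from aged mice are given beside these groups only as values.

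Members of the comparison were the gene symbols listed in both deposited tables, without mitochondrially encoded and spike-in entries: 13661 of the 14165 genes in the table of pools. Each library was rescaled to CPM, counts per 1e+06 counts over these genes. Values are relative levels of polyadenylated RNA and give no amount per oocyte, and in a pool of 10, fewer oocytes with a transcript and less of it in each cannot be told apart. For the young sample, the text gives the lowest, the median and the highest of the 35 oocytes, and the log2 ratio sets the mean of the 2 pools against the counts summed over the 35 oocytes, with 1 CPM added to both. The groups differ in the number of oocytes per library, in siRNA treatment and in the table they were deposited in, and these cannot be told apart. Because the young group is 1 sample, the ratios carry no test, and the only error given is the spread over libraries. A single signed number in parentheses after a gene or its levels is its log2 ratio.

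A fully grown oocyte stops transcribing and lives on messenger RNA (mRNA) stored during growth. During maturation to MII some stored transcripts receive a longer poly(A) tail and are translated, while others lose their tail and are degraded, so the polyadenylated RNA of an MII oocyte is a record of both. A control siRNA is a short double-stranded RNA with no intended target; such RNA is loaded into Argonaute proteins, and long double-stranded RNA can be read by innate sensors in many cell types.

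Shared-gene counts were 17008556 in siCtrl 1 and 13053732 in siCtrl 2, and 5172530 to 11298776 in the young oocytes (median 8108067), or 286397520 in all. The shared genes held 97.3% and 97.1% of the counts in the pools and 95.1% to 96.0% in the oocytes. A level of 5 CPM or more, averaged over both groups, was reached by 8016 genes. Across them, the siCtrl pools correlated with each other at Pearson r = 0.984 on the log2(CPM + 1) scale, and each young oocyte with the sum of the other 34 at 0.952 to 0.989 (median 0.982). Against the young sum, r was 0.709 and 0.690 for the siCtrl pools, 0.659 and 0.692 for the siPlat pools, and 0.523 to 0.978 (median 0.953) for the aged oocytes. These correlations run across genes, which are not independent replicates, and libraries from 1 table share their counting. The siCtrl pools differed by more than counting error (chi-square per degree of freedom 16.5). At 5 CPM in the young sum, the 95% Poisson interval is 5.18% to either side, which covers counting error only, since no molecular identifiers are named.

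Oocyte markers were counted in both groups. Plat, Gdf9 and Mos, the oocyte markers used here, were at 463 CPM or more in the 2 siCtrl pools and all 35 young oocytes. Of 8 cumulus and granulosa genes in both tables, 2 reached 5 CPM, and each was counted in all 35 oocytes: Serpine2 at 706 and 716 CPM in the pools and 771, 981 and 1467 in the oocytes, and Cyp19a1 at 23.6 and 32.02 against 47.3, 71.5 and 110.4. The follicle-stimulating hormone receptor gene Fshr was at 0 and 0.919 CPM in the pools and at 0 in all 35 oocytes. Of 7 stromal and endothelial genes, Pecam1 was at 21.6 and 18.9 CPM in the pools and 94.2, 171 and 239 in the oocytes and Tek at 5.76 and 5.59 against 0.544, 4.51 and 10.6, while the collagen gene Col1a2 was at 0 and 0.153 CPM and at 0 in all oocytes. The summed level of the cumulus list was 734 and 751 CPM in the pools and 844 to 1539.6 in the oocytes. The blood marker C1qb was at 6.06 and 8.20 CPM against 3.29, 9.75 and 17.6. The part of other cells in the results was not tested.

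Counted levels of many genes differed between the siCtrl pools and the young oocytes. Since it is not given whether both deposited tables were counted alike, a difference in RNA composition cannot be told apart from one in counting. Of 8016 genes, 3479 (43.4%) were at least 2-fold apart with both pools outside the whole range of the 35 oocytes. Of these, 1555 (19.4% of the genes) were higher in siCtrl and 1924 (24.0%) lower. Both shares serve below as the background for each gene group, and "apart" means this rule. A gene low in 1 group could enter the 8016 through its level in the other alone, which favours a call. Of the 1601 genes with the lowest young levels (0 to 10.3 CPM), 624 were higher and 51 lower. Of the 1601 with the highest young levels, 166 were higher and 594 lower. At 4-fold, 561 genes (7.00%) were higher and 885 (11.0%) lower. The median log2 ratio over all 8016 genes was -0.19, with the middle 50% between -1.22 and 0.81, and scaling by trimmed means (TMM) moved that median to -0.04. Genes that share sequence with others made up more of the higher than of the lower side. Among the 5756 genes with under 5% of their transcript shared with or overlapped by another gene, 2371 (41.2%) stood apart, 822 (14.3%) higher and 1549 (26.9%) lower, and at 4-fold 224 (3.89%) were higher and 699 (12.1%) lower. By position alone, at any fold, both pools were above the oocytes' range for 1936 genes (24.2%) and below it for 2237 (27.9%). The plot of siCtrl against young levels shows the spread on both sides of the diagonal.

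**Figure D1:**
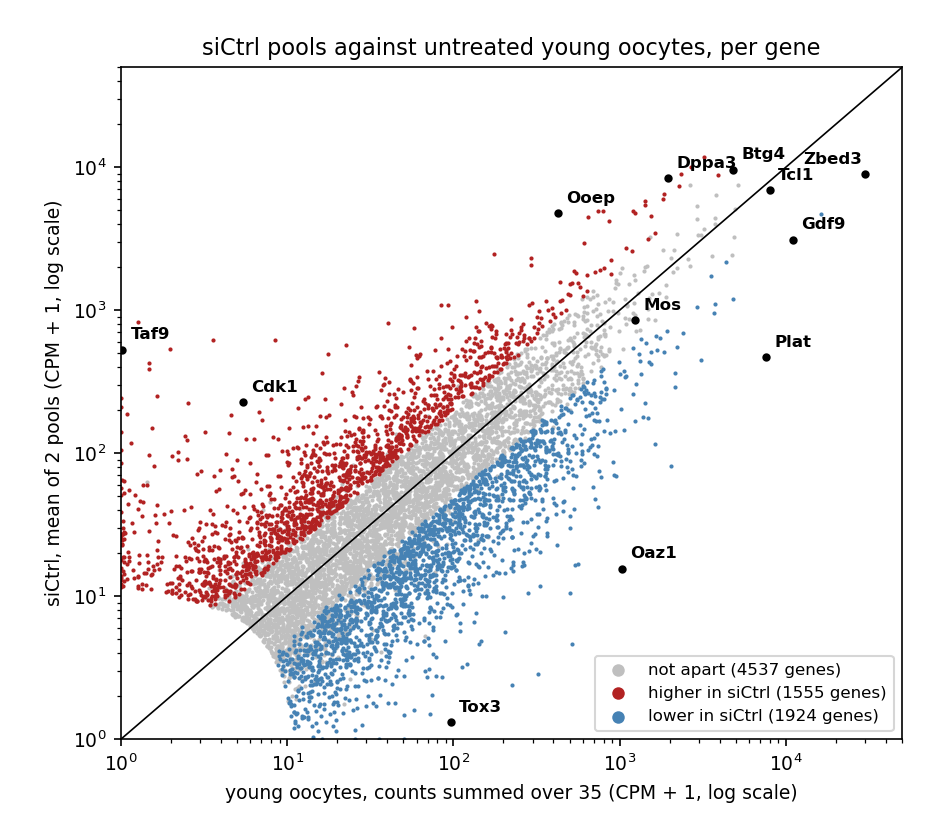
Level of each of the 8016 genes in the siCtrl pools (vertical axis, mean of 2 pools, CPM + 1, log scale) against the young oocytes (horizontal axis, counts summed over 35 oocytes, CPM + 1, log scale); colours mark the 1555 genes higher and 1924 lower in siCtrl by at least 2-fold with both pools outside the oocytes' range. Plat and Gdf9 lie below the diagonal, Ooep and Dppa3 above it, and Mos and Tcl1 near it.

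Plat and Gdf9, both among the 10 most abundant transcripts of young oocytes, were far lower in the control pools, and Mos less so. Plat (chromosome 8 from 22757727 to 22782844, GRCm38) is the gene of tissue plasminogen activator, a protease that oocytes translate from stored mRNA as they mature and release. The siCtrl pools held 463 and 476 CPM of it, and the lowest, median and highest young oocyte 4550.0, 7488 and 10452 CPM. Both control pools lay below every oocyte, 16.2-fold below the young sum (log2 ratio -4.02), and the siPlat pools lower again at 50.2 and 38.7 CPM. Gdf9, a growth factor that the oocyte secretes to its cumulus cells (chromosome 11 from 53431023 to 53437904), was at 2965 and 3272 CPM in the pools and 7187, 11139 and 13759 in the oocytes. Its groups did not overlap either, at 3.52-fold lower in siCtrl (log2 ratio -1.82), with siPlat at 1509 and 1708 CPM. Mos, the kinase that starts a signalling cascade holding the egg in MII (chromosome 4 from 3870657 to 3872105), was at 716 and 990.0 CPM in the pools and 924, 1222 and 1672 in the oocytes. Here siCtrl 1 lay below the oocytes' range and siCtrl 2 within it, and the log2 ratio was -0.54; siPlat was at 225 and 276 CPM.

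The most abundant transcripts of the oocyte differed in both directions. Zbed3, a protein of the subcortical maternal complex and first in rank in the young sample, was at 9582 and 8312 CPM in the pools against 19130.2, 30444 and 37828 in the oocytes. Spin1, a spindlin that binds methylated histone and mRNA, was at 4847 and 4535 CPM against 10945, 16044 and 22388. For each gene both pools were below every oocyte, with log2 ratios of -1.75 and -1.79. Hsp90aa1, a cytosolic chaperone and first in rank in siCtrl, was at 11707 and 11959.8 CPM against 2245, 3196 and 3936 (log2 ratio 1.88; 44.3% of its transcript is shared with other genes). Pttg1, securin, the inhibitor of separase, was at 9119 and 8869.6 CPM against 1677, 2276 and 4427 (1.94). Mphosph6, an RNA exosome cofactor, was at 9164 and 8602 CPM against 2753, 3682 and 6097 (1.19). These 3 were higher in both pools than in any oocyte, as were Obox2, an oocyte homeobox gene (log2 ratio 1.89), and Oosp1, an oocyte-secreted protein (1.70). Of the Obox2 transcript, 66.1% is shared with other genes. Btg4, the adaptor that brings the Ccr4-Not deadenylase to maternal mRNA, was at 9497 and 9735 CPM against 3985, 4846 and 5659, above every oocyte but just under 2-fold (0.99). Pools inside the oocytes' range were seen for Tcl1, a coactivator of the kinase Akt, at 6794 and 7014 CPM against 5624, 7890.1 and 12115 (-0.21), and for Bcl2l10, an oocyte survival factor of the Bcl2 family, at 6781 and 6593 against 6325, 8110.1 and 9299.6 (-0.25). Of the 10 most abundant genes in each group 3 were shared, and of the 100 most abundant 59. The 10 held 8.91% of counts in siCtrl and 10.1% in young oocytes.

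**Figure D2:**
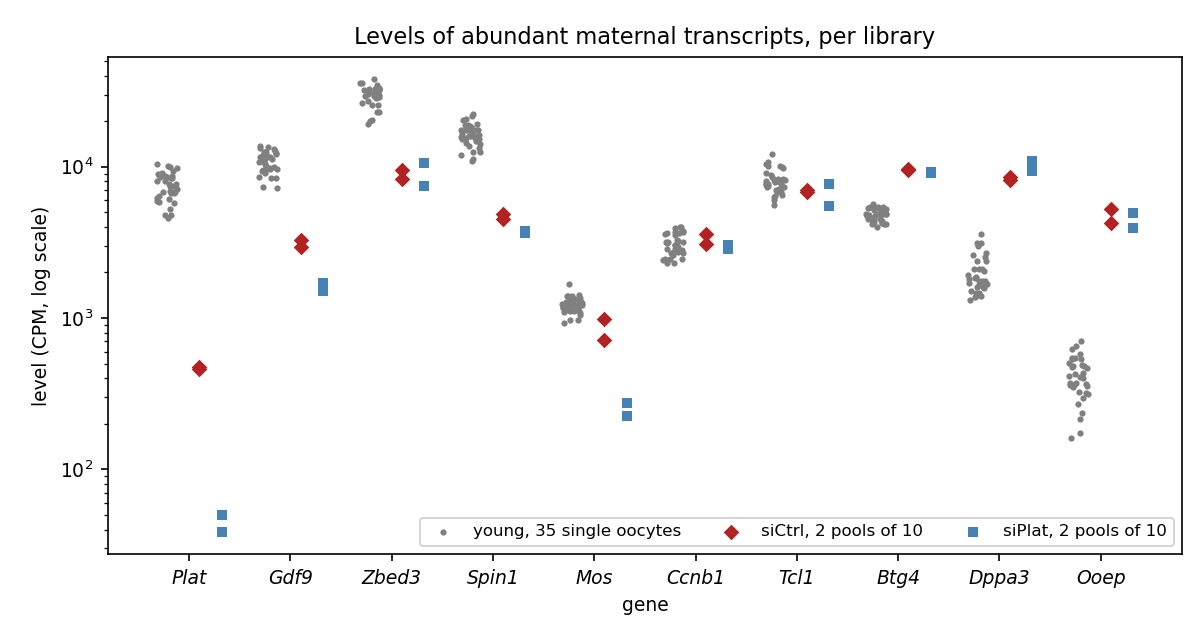
Levels of 10 abundant maternal transcripts (vertical axis, CPM, log scale), with 1 point per library for 35 young oocytes (grey circles), 2 siCtrl pools (red diamonds) and 2 siPlat pools (blue squares). The siCtrl pools lie below all oocytes for Plat, Gdf9, Zbed3 and Spin1, within the oocytes for Ccnb1 and Tcl1, with 1 of 2 pools below them for Mos, and above all oocytes for Btg4, Dppa3 and Ooep.

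Transcripts that receive a longer tail in maturation carry the cytoplasmic polyadenylation element in the 3' untranslated region, close to the end. The motif was searched as TTTTAT or TTTTAAT on the transcript strand in the last 150 bases of coding transcripts with an annotated 3' untranslated region (GENCODE M21, GRCm38), and 22.1% of 20423 coding genes held it. A 30-base stretch around the match nearest the end is printed for Plat, Gdf9 and Spin1, which were lower in siCtrl, and for Ccnb1 and Btg4, which were not, with the motif in capitals, 5' to 3'. The stretches lie at chr8:22782745-22782774 (plus strand), chr11:53437855-53437884 (plus), chr13:51152474-51152503 (plus), chr13:100778775-100778804 (minus) and chr9:51119798-51119827 (plus), in that order.
Plat: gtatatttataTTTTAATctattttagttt
Gdf9: gagtgctgtggTTTTATgtgacggaagaat
Spin1: ctgtaagtaatTTTTATaattatgatgtaa
Ccnb1: ctcatttgctgTTTTAATttatacatctga
Btg4: gataaatccctTTTTATgtctttttaaaag
The motif was present on both sides of the comparison. Of the genes with at least 5 CPM and such a window, 2193 (28.5%) held it, with a median log2 ratio of -0.29, against -0.16 for the 5491 without it. Centred on genes of like transcript length and GC content, these medians were -0.12 and 0.06. With and without the motif, 16.1% and 20.1% were higher and 26.8% and 23.2% lower. A match describes letters in this window and is no binding site shown by these data.

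Of 27 measured maternal mRNAs known to be translationally activated during maturation, 2 were higher, 9 lower and the other 16 not apart, with a median log2 ratio of 0.13 against -0.19 over all genes. Centred on genes of like transcript length and GC content, the list's median was -0.24. Their summed level was 36025 and 35737 CPM in the pools and 47593 to 72179 in the oocytes, so the pools were below the range. The higher members were Dcp2, the decapping enzyme, at 324 and 309 CPM against 47.5, 96.9 and 129, and Mad2l1, a spindle checkpoint protein, at 1421 and 1293 against 472, 622 and 965. Ccnb1, cyclin B1, the activating partner of Cdk1, lay inside the oocytes' range at 3620.2 and 3095 CPM against 2297, 3050.5 and 3979.9. The same held for Ccnb2, Tpx2 and Slbp, with log2 ratios of 0.21, 0.28 and 0.10. Among the lower members, Dcp1a, the decapping activator, was at 401 and 328 CPM against 1349.8, 2113 and 2893, and Tex19.1, a germ cell protein, at 38.1 and 29.95 against 146, 363 and 515. Their log2 ratios were -2.56 and -3.38, the lowest of the list after Plat.

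Plasminogen activation as a system has few transcripts in the oocyte. Of 13 listed genes, 5 reached 5 CPM; 2 were lower, Plat and its clearance receptor Lrp1 (25.2 and 16.5 CPM against 40.2, 81.5 and 167, log2 ratio -2.05), and 0 higher. The protease inhibitor genes Serpine2 (log2 ratio -0.47) and Serpini1 (-0.55) were not apart. Serpine2 was below all oocytes in both pools but within 2-fold, and Serpini1 lay inside their range at 60.9 and 69.9 CPM against 51.9, 89.1 and 148.

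Secreted factors and zona pellucida genes split in both directions. Of 14 measured, 4 were higher and 4 lower, with a median log2 ratio of 0.37, which went to -0.069 without siCtrl 2. The oocyte-secreted proteins Oosp1, Oosp2 and Oosp3 were higher, Oosp1 at 7743 and 7105 CPM against 1211, 2221 and 3528 and Oosp3 at 4700.2 and 4193 against 442, 639 and 909. Izumo1r, the egg receptor for sperm (Juno), was also higher at 68.7 and 91.9 CPM against 14.7, 37.99 and 58.7. The lower genes were Gdf9, its paralogue Bmp15 (2118 and 2207 CPM against 2642, 4365 and 6574), the receptor tyrosine kinase Kit (108 and 119 against 312, 449.8 and 731) and Astl. Astl, the protease that cleaves the zona after fertilisation, was at 73.4 and 99.3 CPM against 414, 865 and 1473 (log2 ratio -3.38), and siPlat was at 22.6 and 29.02. For the zona proteins the siCtrl pools differed from each other: Zp2 was at 239 and 536 CPM, Zp3 at 272 and 591 and Zp1 at 135 and 240.3 in siCtrl 1 and 2. Pool 1 lay inside the oocytes' range for all 3, and pool 2 above it for Zp2 and Zp3.

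Maternal effect genes, whose products the embryo needs before its own genome is switched on, showed 8 higher and 5 lower of 30 measured, with a median log2 ratio of 0.27; in members with under 5% shared or overlapped sequence it was -0.42. Ooep, a member of the subcortical maternal complex, was at 4245 and 5252 CPM against 161, 406 and 701 (11.2-fold higher, log2 ratio 3.48). Npm2, the histone chaperone that remodels sperm chromatin, was at 1836 and 2310.1 CPM against 193, 281 and 476 (2.82). Dppa3, which protects the maternal genome from demethylation, was at 8187 and 8589 against 1309, 1825 and 3597 (2.10, 21.4% shared sequence). All 3 stood above every oocyte in both pools. Of the other subcortical complex members, Nlrp5, Tle6 and Padi6 did not follow Ooep. Nlrp5 was at 377 and 422 CPM against 303, 486 and 1505 and Tle6 at 233 and 336 against 113, 418 and 1206, inside the oocytes' range, and Padi6, needed for the cytoplasmic lattices, was lower at 479 and 579 against 758, 1712 and 2666 (-1.66). Khdc3, a further member of the complex, went in the direction of Ooep, with a log2 ratio of 5.45. Of its transcript, 30.2% is shared with and 38.5% overlapped by other genes. Of other Nlrp genes, Nlrp14 lay inside the range at 2534 and 2745 CPM against 878, 1697 and 3596, Nlrp4f just above it at 1632 and 1619 against 959, 1186 and 1599, and Nlrp9b (1.41) and Nlrp4e (1.35) were higher.

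Of 31 measured cell cycle transcripts of MII arrest, 4 were higher (12.9%, against 19.4% of all genes), 6 lower (19.4%, against 24.0%) and 21 not apart. Their median log2 ratio was -0.25, and -0.05 centred on length and GC content. Cdk1, the kinase of M phase, was at 210.0 and 241 CPM in the pools and 1.28, 3.70 and 10.6 in the oocytes, a log2 ratio of 5.39. Its transcript shares 0% of its sequence with other genes in GENCODE M21, and siPlat was at 399 and 210.2 CPM. Its low level in the single-oocyte table is uncertain, since no source used here says whether both tables were counted with 1 annotation. Map2k1, a kinase of the cascade that Mos starts, was lower at 254 and 223 CPM against 619, 771 and 955 (-1.71). The higher genes also included Cks2, a Cdk1 subunit (2.27), and Ube2c, a ubiquitin-conjugating enzyme of the anaphase-promoting complex (1.55). The remaining lower genes included Cdc20, which activates that complex, at 105 and 93.7 CPM against 339.8, 468 and 741 (-2.29), and Fbxo43, Emi2, which inhibits it to hold MII arrest, at 137 and 137 against 296, 432 and 557 (-1.63). Aurkc (-2.03), Pkmyt1 (-1.65) and Cdc25a (-1.17) completed that group.

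Of 19 meiotic cohesin and spindle checkpoint genes, 8 were higher (42.1%, against 19.4% of all genes) and 2 lower, with a median log2 ratio of 0.29. Smc1b, the meiotic cohesin subunit, was at 86.5 and 82.9 CPM against 13.8, 21.5 and 35.2 (1.91). The checkpoint kinases Bub1, at 121 and 120.0 CPM against 20.3, 32.6 and 44.9, and Ttk, at 147 and 154 against 43.1, 64.6 and 94.6, and the passenger protein Birc5, at 567 and 718 against 120.5, 159.9 and 413, were above all oocytes. Bub1b, a further checkpoint protein, was below them at 748 and 643 CPM against 1608, 2412 and 3246 (-1.79), as was Espl1, separase, the protease that cuts cohesin, at 69.7 and 60.4 against 82.9, 227 and 311 (-1.70). Securin and separase, which bind each other, therefore had ratios of opposite sign. Sycp3, of the synaptonemal complex, was at 152 and 153 CPM against 3.95, 10.6 and 31.9 (3.63), and Sgo2a, a guardian of cohesin, was also higher (1.30). Smc3 (0.32), Bub3 (0.13) and Sgo1 (0.14) lay inside the range.

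Regulators of stored mRNA had few higher members and a share lower near the background. Of 26 storage and cytoplasmic polyadenylation genes, 1 was higher (3.85%, against 19.4% of all genes) and 6 lower (23.1%, against 24.0%), with a median log2 ratio of -0.55 that became -0.14 when centred on length and GC content. Cpeb1, which binds the polyadenylation element, was at 121 and 101 CPM against 239.7, 500.3 and 712 (-2.21), and Eif4e1b, an oocyte cap-binding protein, at 22.5 and 30.4 against 156, 307 and 439 (-3.51). Pum2, an RNA-binding repressor, was also lower (-2.17), and the poly(A) polymerase gene Papola was lower (-1.09) while its relative Papolg was higher (1.90). Dazl, an activator of translation, was at 1729.5 and 2028 CPM against 941, 1391 and 1836, with siCtrl 1 inside and siCtrl 2 above the range. Zar1 lay inside it at 779 and 824 CPM against 442, 1081 and 2406. Among 24 deadenylation and decay genes, 5 were higher and 8 lower (median log2 ratio 0.08). The Ccr4-Not genes went in different directions: Cnot8 was at 82.1 and 77.9 CPM against 478, 595 and 712 (-2.86), Cnot7 at 1408 and 1233 against 1040.2, 1282 and 1608 (0.03), and Cnot2 at 135 and 147 against 39.8, 68.2 and 87.97 (1.01). For Cnot6l, a deadenylase of maternal mRNA, the siCtrl pools differed widely from each other at 287 and 879 CPM, as did the siPlat pools at 802 and 235, against 298, 503 and 1098 in the oocytes.

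Genes that respond to double-stranded RNA showed no common direction in the siCtrl pools. Of 35 listed, 21 were in both tables and 10 reached 5 CPM; 2 were higher and 3 lower, and the median log2 ratio was -0.81 (-0.46 centred on length and GC content). The higher ones were Ddx58, the sensor RIG-I, at 15.2 and 15.2 CPM against 1.58, 6.70 and 14.7, both pools just above the highest oocyte, and the interferon-induced membrane protein Ifitm3 at 148 and 154 against 45.8, 69.7 and 132. The lower ones were Mavs, the adaptor of RIG-I, at 9.58 and 4.83 CPM against 19.3, 42.5 and 61.5, Adar, an RNA-editing deaminase, at 10.6 and 10.4 against 19.6, 41.8 and 75.9, and Bst2 at 9.70 and 5.29 against 11.8, 23.3 and 44.7. Oas1d and Oas1e, oocyte-expressed relatives of the interferon-induced 2-5A synthetases, were at 2381 and 2450.0 CPM against 3509.7, 4685 and 6181 and 1232 and 1371 against 1116, 1559 and 2003.

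In the RNA interference machinery itself, 3 of 12 measured genes were higher and 1 lower. The list's median log2 ratio was -0.04, and its sign changed with the scaling, to 0.12 with TMM, 0.15 when centred on all genes and 0.59 when centred on length and GC content. Dicer1, which cuts double-stranded RNA into siRNA, was at 1012 and 952 CPM against 234, 310.0 and 530.3 (1.58), above every oocyte. Ago2, the Argonaute that cuts targets, was at 22.2 and 29.1 CPM against 13.9, 35.4 and 57.1, inside the range, and Ago3 at 80.1 and 86.1 against 129, 163 and 201, below it but within 2-fold. Ddx4, the germ cell helicase, was at 288 and 313 CPM against 13.7, 33.4 and 62.8 (2.999). Mael was the third higher gene (2.53), and Tnrc6c, a scaffold that Argonaute recruits, the lower one (-2.09).

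Stress-related lists differed among themselves. Of 19 heat shock genes, 7 were higher (36.8%) and 2 lower, with a median of 0.60; among the 10 with under 5% shared or overlapped sequence, 2 were higher and 2 lower, with a median of 0.41. Of 19 antioxidant genes, 8 were higher (42.1%) and 2 lower, with a median of 1.23. Among the 11 with under 5% shared or overlapped sequence, 4 were higher and 1 lower, with a median of 1.02. By transcript length, 11 of the 19 were in the shortest of 5 equal groups. Centred on length and GC content, the median of the 19 was 0.75. Prdx1, a peroxide-reducing enzyme, was at 4919 and 4622 CPM against 972, 1243 and 1545 (1.96), and siPlat at 9720.4 and 8528. The endoplasmic reticulum chaperone Hsp90b1 was at 382 and 431 CPM against 59.9, 99.5 and 140.5 (1.98), whereas Hsf1, the factor that turns on heat shock genes, was lower at 55.5 and 50.02 against 170.1, 283 and 357 (-2.41). The stress-induced Hsp40 gene Dnajb1 was lower as well (-1.52). Txnrd1, thioredoxin reductase, was at 33.3 and 34.4 CPM against 159, 219 and 296 (-2.69) and Sod1 at 37.04 and 41.1 against 49.4, 78.7 and 159 (-1.05). Both lists thus had members on either side.

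Immediate early genes, which many cells switch on within minutes of handling, were few: 13 of 21 listed were in both tables and 5 reached 5 CPM, with 1 higher and 2 lower. The median of the 5 was -1.81, and -0.16 centred on length and GC content. Egr1 was at 10.4 and 10.7 CPM against 16.1, 38.1 and 74.2, Dusp1, a dual-specificity phosphatase, at 64.1 and 77.1 against 215, 329.9 and 472, and Btg2 was the higher gene at 67.3 and 67.03 against 12.5, 21.5 and 36.7. Of 13 genes of the p53 and DNA damage list, 1 was higher and 4 lower: Trp53 was at 69.9 and 58.1 CPM against 101, 151 and 189 and Mdm2, its ubiquitin ligase, at 154 and 141 against 321, 402 and 451. Cell death genes stood at 5 higher and 6 lower of 16 (median -0.23); of the 9 with under 5% shared or overlapped sequence, 0 were higher and 5 lower (median -1.16). Bcl2l1, the survival factor Bcl-xL, was at 8.76 and 6.66 CPM against 29.3, 94.3 and 158 (-3.46), and Bcl2l11, the pro-apoptotic Bim, at 8.35 and 9.12 against 11.1, 36.7 and 60.3 (-1.98). Cycs, cytochrome c, was at 181 and 184 CPM against 26.5, 42.5 and 72.7 (2.02, 30.2% shared sequence). In the unfolded protein response, 5 of 23 were higher and 6 lower (median 0.33, or 0.08 with under 5% shared or overlapped sequence). The sensor gene Ern1 was at 208 and 197 CPM against 659.8, 989.9 and 1515 (-2.32), the disulfide isomerase genes Pdia3 and Pdia6 had ratios of 2.03 and -2.77, and the stress factor Atf4 lay inside the range at 38.9 and 70.7 against 11.3, 34.4 and 72.6.

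Lists of short housekeeping transcripts had some of the highest medians. Of 48 nuclear genes of oxidative phosphorylation, which makes ATP in mitochondria, 24 were higher (19.4% of all genes were) and 2 lower, with a median log2 ratio of 1.43. Cox6c was at 224 and 347 CPM against 34.6, 53.4 and 111, Cox5a at 201 and 163 against 19.9, 35.6 and 57.4 and Ndufa4 at 379.6 and 567 against 75.96, 120.2 and 203, and both pools lay above every oocyte for all 3. The 2 lower genes were Sdha, at 77.9 and 59.5 CPM against 144, 237 and 299.9, and Sdhc, at 38.3 and 24.2 against 89.7, 121 and 163, both of succinate dehydrogenase. Cytosolic ribosomal protein genes had 35 of 55 higher (63.6%) and 2 lower, with a median of 1.36, although 6 of the 55 had under 5% shared or overlapped sequence, and 3 of those were higher. Rps24, one of these 3, was at 51.3 and 56.1 CPM against 5.97, 9.89 and 17.6. Proteasome subunits, which degrade ubiquitin-tagged protein, had 15 of 29 higher (51.7%) and 1 lower, with a median of 1.003. Psma2 was at 1962 and 1659 CPM against 424, 535 and 744 and Psmb2 at 431 and 523 against 43.5, 98.7 and 215. Psmd3 was the lower subunit at 25.8 and 32.9 CPM against 67.96, 181 and 277. Of the members of these 3 lists, 39 of 48, 48 of 55 and 21 of 29 were in the shortest 20% of transcripts. Centred on genes of like length and GC content, their medians were 0.66, 0.68 and 0.27.

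Glycolysis and pentose phosphate genes had 3 of 19 higher and 5 lower (median log2 ratio -0.56); of the 6 with under 5% shared or overlapped sequence, 0 were higher and 3 lower (median -1.71). Gapdh was at 141 and 174 CPM against 10.9, 31 and 51.8 (2.35, 28.4% shared sequence). Pfkl, a phosphofructokinase, was at 0.882 and 0.766 CPM against 9.20, 18.3 and 28.6 (-3.45) and Pdk1, which holds back pyruvate dehydrogenase, at 5.29 and 7.58 against 21.7, 54.3 and 73.2 (-2.85). Of 32 chromatin regulators, 7 were higher and 12 lower (37.5%, against 24.0% of all genes), with a median of -0.39 that became 0.19 when centred on length and GC. Kmt2d, a histone H3 lysine methyltransferase, was at 54.1 and 39.6 CPM against 366, 738 and 963 (-3.90). The DNA methyltransferase genes differed: the maintenance enzyme Dnmt1 was higher at 1487 and 1607 CPM against 318, 528 and 927 (1.47), and the de novo enzyme Dnmt3a lower at 99.1 and 93.6 against 275, 419 and 599 (-2.12). Uhrf1, the partner of Dnmt1, was also lower (-1.84), and Ezh2, of Polycomb complex 2, higher (1.15). Egg activation and calcium genes had 0 of 19 higher and 5 lower. Camk2g, the kinase that reads the calcium rise at fertilisation, was at 37.5 and 33.9 CPM against 293, 497 and 660.5 (-3.77), while the calcium release channel Itpr1 was at 49.3 and 47.04 against 53.8, 76.1 and 117, below every oocyte but within 2-fold.

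**Figure D3:**
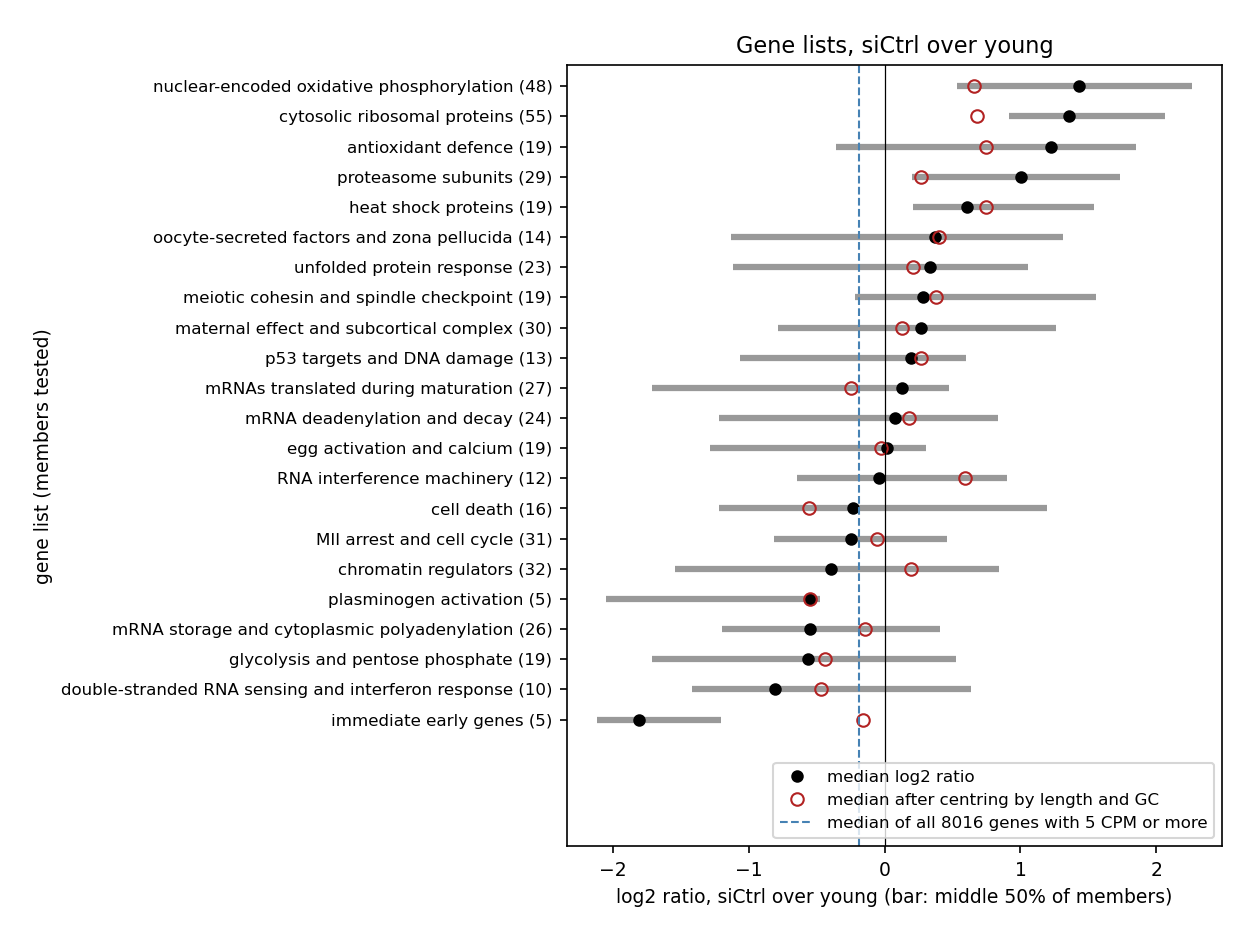
Log2 ratio of siCtrl over young (horizontal axis) for each gene list with at least 5 measured members (vertical axis, members measured in brackets); black points are medians, grey bars the middle 50% of members, red circles the medians after centring on genes of like length and GC content, and the dashed line the median of all genes, -0.19. Oxidative phosphorylation and ribosomal proteins lie highest, at 1.43 and 1.36, and the 5 immediate early genes lowest, at -1.81, which became -0.16 after centring.

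Transcript length and base composition moved with the ratio across all genes. In 5 equal groups by length, from shortest to longest, the median log2 ratio was 0.80, -0.16, -0.50, -0.48 and -0.49, and 39.6% of the shortest group were higher against 8.18% of the longest. By GC content, from lowest to highest, the medians were 0.35, 0.03, -0.26, -0.54 and -0.995. Combined, they ran from 1.24 in short transcripts of low GC content to -1.65 in longer transcripts of high GC content, and the rank correlation with the ratio was -0.28 for length and -0.30 for GC content, across 8005 genes. The siPlat pools, set against the same young oocytes, had medians of 0.81 and -0.78 in the shortest and longest group and 0.32 and -1.22 at the lowest and highest GC content. After centring each ratio on its length and GC group, 1208 genes were higher and 1322 lower. Length and GC content were not tested as a source of the gene groups above beyond these centred values.

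**Figure D4:**
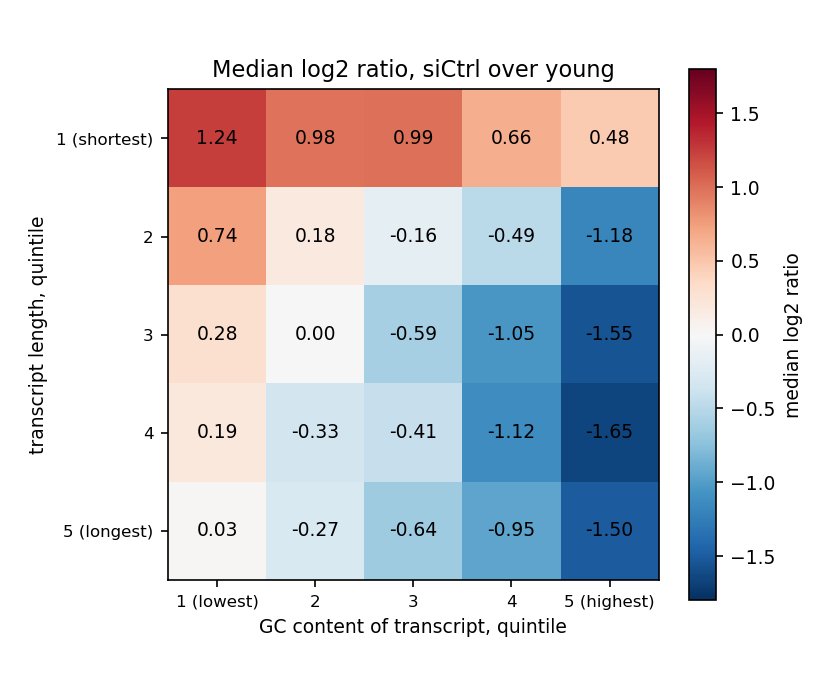
Median log2 ratio of siCtrl over young in 25 groups of genes, by transcript length (vertical axis, 5 equal groups from shortest to longest) and GC content (horizontal axis, 5 equal groups from lowest to highest); red is higher and blue lower in siCtrl. Values run from 1.24 for short transcripts of low GC content to -1.65 in the fourth length group at the highest GC content.

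Among genes with at least 5 CPM in each group, the 12 with the highest ratio were led by Sap18b, a copy of the Sin3-associated protein gene Sap18, at 632 and 594 CPM against 4.43, 7.48 and 12.98; the whole of its transcript is shared with other genes. Of these 12, 9 had at least 5% of their transcript shared or overlapped, among them Amd2, Usp14, Rnf8 and Ftl1. The other 3 were Gins4, a DNA replication factor, at 219.8 and 254 CPM against 1.65, 7.12 and 11.3 (33.7-fold higher), Fam160a1 at 801 and 820.0 against 21.7, 37.7 and 58.8 (20.4-fold) and Rab3il1, an exchange factor of Rab GTPases, at 133 and 165 against 2.90, 8.37 and 18.96 (16.1-fold). Of the 12 lowest, 3 had such sharing. Oaz1, ornithine decarboxylase antizyme, was first at 22.5 and 6.66 CPM against 863, 1023 and 1207 (70.97-fold lower, 23.1% shared). Next came Lars2, mitochondrial leucyl-tRNA synthetase, at 9.11 and 9.88 CPM against 186, 373 and 1763. For Lars2 siPlat was at 96.4 and 10.97 CPM, and the 35 oocytes spanned a wide range. Hjurp, the chaperone of the centromere histone CENP-A, was at 14.5 and 16.5 CPM against 314, 519.7 and 763 (34.7-fold lower), and Rab3d, a GTPase of secretory granules, at 17.1 and 14.6 against 229.8, 550.0 and 778 (35.2-fold). Rbm38, an RNA-binding protein, was the most abundant of the 12 in young oocytes at 76.5 and 84.9 CPM against 1022, 2120.2 and 2664. Sec61a1 (-4.81), Rnf122 (-4.76), Scn10a (-4.33), Sec24c (-4.32), Kcnh1 (-4.22), Polm (-4.16) and Rnf141 (-4.14) made up the rest.

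A few genes were near 0 in one group and clearly counted in the other. Under 0.5 CPM in every oocyte and at 10 CPM or more in both pools were 32 genes, of which 28 had at least 5% of their transcript shared or overlapped and 22 had at least 50% shared; over all genes with at least 5 CPM these shares were 28.1% and 2.39%. Taf9, a subunit of the transcription factor TFIID (chromosome 13 from 100651579 to 100656060), was at 537 and 521 CPM in the pools, from 15938 counts, with 6 counts in all 35 oocytes together, and 73.8% of its exonic length lies under exons of another gene. Pakap (chromosome 4 from 57568179 to 57896982) was at 242 and 239 CPM with 0 counts in the oocytes, at least 22945-fold higher against a floor of 3 counts over the group, and 98.2% of it lies under other exons. Cphx1 followed at 100.2 and 109.7 CPM, Nupl1 at 82.8 and 86.3, B3gnt4 at 59.97 and 68.3 and Fam177a at 54.1 and 57.4, each with over 50% shared sequence. In the other direction 4 genes were under 0.5 CPM in both pools and at 10 CPM or more in every oocyte. Tox3, a nuclear protein of the high mobility group box family (chromosome 8 from 90247040 to 90348343), had 10 counts in both pools together and was at 37, 96.6 and 164 CPM in the oocytes. Micall2, which binds Rab GTPases (chromosome 5 from 139706696 to 139736336), had 0 counts in the pools against 12.2, 33.8 and 58.7 CPM, at least 349-fold lower. Both have 0% shared sequence and overlap, and in siPlat Tox3 was at 0 in both pools and Micall2 at 0.505 and 0.622 CPM. Whether the tables were counted with the same annotation is not given in the sources used here.

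By chromosome, the share of genes lower in siCtrl ran from 12.3% on X to 30.9% on chromosome 8, and the share higher from 14.2% on chromosome 5 to 24.9% on X. Chromosome X also had the lowest median GC content of transcripts, at 43.9%. In 392 windows of 2 Mb with at least 8 genes, the highest share apart was 7 of 8, on chromosome 3 from 54000001 to 56000000, with 4 higher and 3 lower. On chromosome 11 from 118000001 to 120000000, 7 of 9 genes were lower and 0 higher. On chromosome 12 from 54000001 to 56000000, 11 of 15 were higher and 0 lower. These windows were picked from the 392 by their shares, and 43.4% of all 8016 genes were apart.

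The young oocytes were also set beside both kinds of pool for genes that differ between siPlat and siCtrl. The 37 genes at least 4-fold different between the siPlat and siCtrl pools, with no overlap of the pools, were taken for this after their values were seen. For 13 of them both kinds of pool were outside the oocytes' range, for 10 the siCtrl pools alone, for 10 the siPlat pools alone, and for 4 neither. Over the 8016 genes, at any fold, both siCtrl pools were outside the range for 52.1% and both siPlat pools for 55.4%. These are separate shares for each kind of pool. The joint classes were not counted over all genes, so the split of the 37 cannot be set against a background. Choosing genes by a difference between the pools also bears on the classes, and some of the 37 did not reach 5 CPM on average. The counts are therefore given only as a description. Agbl2, a tubulin-trimming carboxypeptidase, was at 44.9 and 37.1 CPM in siCtrl, 0 and 0 in siPlat and 0, 1.35 and 6.05 in the oocytes, so siCtrl lay above them. Rassf4 was at 13.5 and 13.6 CPM in siCtrl, 0.168 and 0 in siPlat and 0, 0.234 and 2.02 in the oocytes. Fam171b followed the same pattern, with 16.1 and 11.3 CPM in siCtrl, 0.337 and 0.778 in siPlat and 0, 1.26 and 4.62 in the oocytes. Hsd17b13, a lipid droplet enzyme, was at 3.53 and 2.45 CPM in siCtrl, below all oocytes, while siPlat at 57.1 and 47.1 lay inside their range of 21.7 to 60.7. On chromosome 4, the zinc finger genes Zfp979 and Zfp980, the latter under 4-fold between pools, were likewise below the oocytes in siCtrl and inside their range in siPlat. Zfp979 was at 36.04 and 55.9 CPM in siCtrl, 458 and 336 in siPlat and 172, 290.0 and 606 in the oocytes. For Zfp980 siCtrl held 19.6 and 17.6 CPM, siPlat 67.3 and 72.5 and the oocytes 27.2, 51.7 and 94.5. Zfp992, on the same chromosome, was inside the range in siCtrl (3.88 and 4.44 CPM against 0.497, 3.28 and 9.89) and above it in siPlat (15.4 and 25.98), and for Zfp984 both kinds of pool overlapped the oocytes, with 5.35 and 6.05 CPM in siCtrl, 29.1 and 17.9 in siPlat and 4.48, 10.9 and 22.2 in the oocytes. Reads of this family can be split between close copies: the shared sequence was 28.5% for Zfp979, 76.2% for Zfp980 and 43.4% for Zfp992, so these values are uncertain.

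The siPlat pools alone left the oocytes' range for Nfya, the DNA-contacting part of NF-Y, which was at 247 and 247 CPM in siCtrl, 40.7 and 41.8 in siPlat and 115, 202 and 278 in the oocytes. Vamp3, a vesicle fusion protein, was at 82.02 and 76.99 CPM in siCtrl, 15.7 and 19.5 in siPlat and 36.6, 80.5 and 112 in the oocytes. Swap70, a Rac-binding protein, had 15.1 and 15.6 CPM in siCtrl, 1.68 and 1.94 in siPlat and 11.9, 22.9 and 39.8 in the oocytes. In all 3 the siCtrl pools were inside the oocytes' range and both siPlat pools below it. Plat belonged to the 13 genes outside the range in both kinds of pool, with siCtrl already below every oocyte. Trim21, an antibody-binding ubiquitin ligase, was another, at 14.1 and 15.4 CPM in siCtrl and 2.02 and 2.33 in siPlat with 0 counts in the oocytes, and so was Stk32a, a kinase, at 14.1 and 22.7 CPM in siCtrl and 85.5 and 77.3 in siPlat against 0, 0 and 1.38 in the oocytes.

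**Figure D5:**
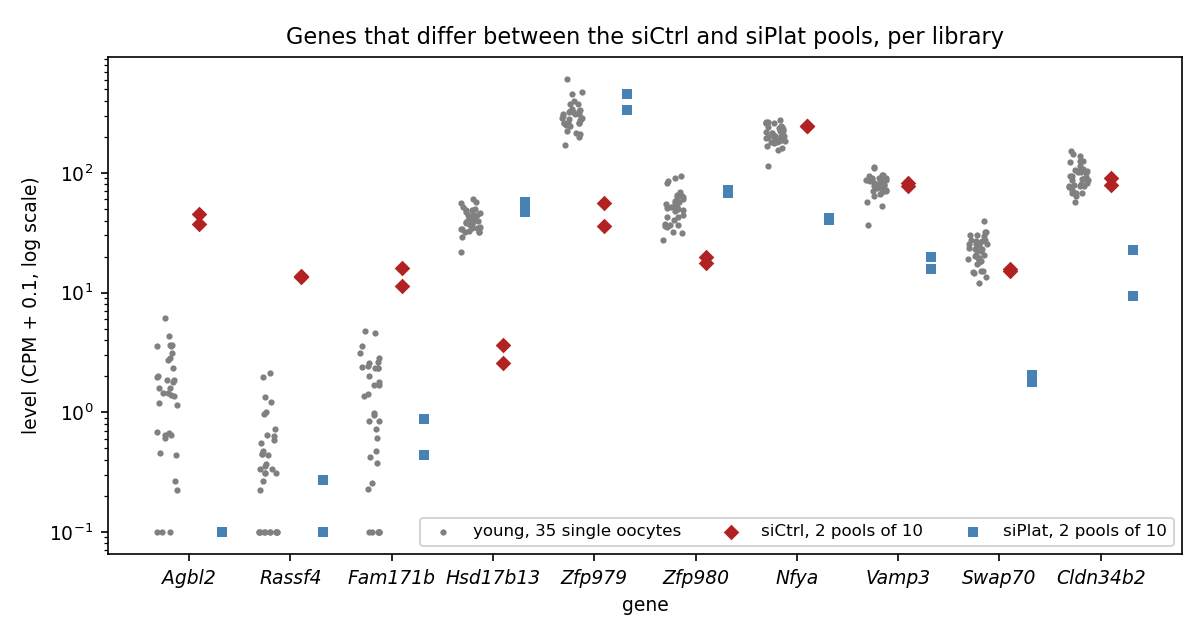
Levels of 10 genes that differ between siCtrl and siPlat pools, all at least 4-fold except Zfp980 (vertical axis, CPM + 0.1, log scale), with 1 point per library for 35 young oocytes (grey circles), 2 siCtrl pools (red diamonds) and 2 siPlat pools (blue squares). For Agbl2, Rassf4, Fam171b, Hsd17b13, Zfp979 and Zfp980 the siCtrl pools lie outside the oocytes and siPlat within them. For Nfya, Vamp3, Swap70 and Cldn34b2 the siPlat pools lie below the oocytes and siCtrl within them. Other genes share 52.5% of the Cldn34b2 transcript.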

How the data were processed

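MII oocytes were profiled by Smart-seq2, in which polyadenylated RNA is copied and amplified, as single cells (35 young and 59 aged) or pools of 10 (2 siCtrl and 2 siPlat). The authors deposited whole-number read counts per gene in 1 table for single oocytes and 1 for pools. STAR 2.7.10b, HTSeq 0.13.5 and the mm10 build are named, without roles, per the submitters' processing notes; the annotation, strand setting and gene filter are not given in the sources used here. Nothing says that the pools came from separate animals.

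Counts of the 13661 shared gene symbols were rescaled to CPM per library, without 37 mitochondrially encoded and 92 spike-in entries. A gene stood apart when the mean of the 2 pools and the young sum differed at least 2-fold (1 CPM added) and both pools lay outside the range of the 35 oocytes, among 8016 genes at 5 CPM or more on average. No test was made. Transcript length, GC content, positions, sequence shared in 50-base words and exon overlap came from GENCODE M21 (13638 genes matched by symbol). Scripts used Python 3.11.15, numpy 2.4.6, pandas 2.3.3, scipy 1.17.1 and, for TMM scaling, edgeR 4.0.16, and were checked on simulated counts.

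The 26 gene lists (683 entries, 600 in both tables, 468 at 5 CPM or more), the members and the rules were chosen with earlier results of these data known. Genes were named by these rules: the 12 highest and 12 lowest ratios among genes at 5 CPM in each group, without pseudogene, clone-named, ribosomal, Pramel and Zfp symbols; genes near 0 in 1 group; list members; Plat, Gdf9 and Mos; the 10 most abundant genes of each group; and genes named for the pool comparison. Genes that differ between pools were added after their values were seen. Zygotic genome activation genes, with 3 of 18 measured, had 1 higher (Sp110, 1.26). Alternatives varied scaling, the added CPM, the minimum level, the fold, the young summary, the range and the pools used. Restriction to genes with under 5% shared or overlapped sequence and centring on length and GC content were chosen after seeing the data. Single-gene results for 2 list members are not reported here.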

Additional observations from a re-analysis of the deposited data

How the results depend on the processing

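The counts of genes apart, 1555 higher and 1924 lower in siCtrl, stayed within 1.5 times under every other scaling, added CPM, minimum level, young summary and range tried, between 1067 (minimum 20 CPM) and 1926 (no minimum) higher and between 1322 (centred on length and GC content) and 2143 (range without the extreme oocytes) lower. Requiring 4-fold left 561 higher and 885 lower, by construction, and genes with under 5% shared or overlapped sequence held 822 higher. Without one pool or the other, 1536 to 1738 were higher and 2048 to 2051 lower. Scaling by TMM gave 1832 higher and 1689 lower. Several list medians changed sign, and the cause was not tested. The median of translationally activated mRNAs was -0.24 centred on length and GC content, that of secreted and zona genes -0.015 with under 5% shared sequence and -0.069 to 0.77 without one pool, and that of maternal effect genes -0.42 with under 5% shared sequence. RNA interference genes had 0.15 centred on all genes, 0.12 with TMM, 0.025 against the median oocyte and 0.59 centred on length and GC content. At a minimum of 20 CPM the p53 list had -0.43 and the cell death list 0.47. Centred on length and GC content, the median of chromatin regulators went from -0.39 to 0.19. That of the 3 zygotic genome activation genes went from 0.75 to -0.23. Egg activation genes had -0.35 with under 5% shared sequence, -0.028 centred on length and GC content, and -0.051 to 0.090 without one pool. Of the reported genes that stood apart, none changed direction under the other scalings, added CPM and young summaries or without one pool. They were at least 2-fold apart by choice, so a small shift in scale could hardly reverse them. Centring on length and GC content reversed Bnip3 (-0.058) and Ndufv2 (-0.035), which had been higher. It also reversed Smarca4 (0.18), Tet3 (0.16) and Trim28 (0.00693), which had been lower. No paired analysis was possible because the young oocytes are 1 sample and share no replicate numbers with the pools. At 5 CPM counting error was 5.18% in the young sum, and lower levels rest on few counts.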
